A study of Danio rerio with 14 samples.

Results

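The regions described here are 82 large stitched domains of H3K27ac, the acetylation of lysine 27 on histone H3 that marks active enhancers and promoters, that recurred in normal zebrafish thymus and in at most 1 of 4 IRF4-driven tumors. They were chosen by the measured length of the genome that called peaks cover. In each library, peaks on chromosomes 1 to 25 lying within 12500 bp of each other were joined, joined domains were ranked by the summed length under their peaks, and the 500 largest were kept. Kept domains of the 7 libraries were then merged wherever they overlapped by at least 1 bp, which gave 1273 merged domains. Of these, 82 (6.44%) were kept in all 3 thymus libraries and in no tumor or a single tumor, and they hold 3716 of the 220034 peaks of the series. A difference in covered length between tumors and thymus is therefore what selected these domains, so the covered lengths, peak numbers and ranks below describe them and carry no test.

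The tumors arose in zebrafish that carry human IRF4, a transcription factor of lymphocytes, together with the red fluorescent reporter mCherry, both under the zebrafish lck promoter, which is active in lymphocytes of several stages. Tumor cells came from 4 such fish, and neither their age nor their p53 genotype is given in the labels. The thymus samples came from fish with lck-driven mCherry alone and were taken at 3 months. The study's methods state a sort for mCherry-positive cells in both tissues, while the labels name it for thymus only. The sources do not settle how many fish went into a thymus library. Libraries are named by tissue and number, as tumors 1, 2, 3 and 4 and thymus 2, 3 and 5.

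Acetylation of H3K27 is laid down where transcription factors recruit histone acetyltransferases, and a run of acetylated enhancers packed near a gene is often called a stretch or super-enhancer. In T cells such stretches are known near genes that set cell identity, among them receptors for chemokines, components of T-cell receptor signaling and transcription factors of the lineage. A stitched domain holds separate peaks with uncovered sequence between them, so a domain can drop in rank because its peaks become fewer, narrower or more widely spaced.

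Each library was called on its own, and the lists hold positions without read counts. The study states a general sequencing depth and no total per library, so the depth behind each list is unknown. The tumor lists held 19809 to 32781 peaks, with tumor 4 the shortest, against 31647 to 40335 in the thymus lists. The word batch2 stands in the peak names of thymus 2 and thymus 5, and in those of no other list, without a stated meaning. Values of thymus 3 are therefore given wherever libraries are listed singly. Values that pool the thymus libraries rest in part on thymus 2 and thymus 5. Beyond what thymus 3 shows, that word and tissue cannot be told apart. Of 10 T-cell marker genes, 7 had regions assigned to them in the study's tables. Peaks lay at regions of all 7 in each thymus library and of 6 in each tumor, the exception being cd8a, a co-receptor of cytotoxic T cells, with a peak at 0 of its 4 regions in any tumor and at 1, 4 and 4 of them in thymus 2, 3 and 5. The study's tables mostly list regions that its own read test picked from these samples, so these peaks are no independent check of cell type. Markers of B cells, erythroid cells, myeloid cells and thymic stroma had no assigned region to look up. The part of other cell types that might pass the mCherry sort was therefore not tested. Fewer cells with a mark and less mark per cell cannot be told apart in such bulk libraries.

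The 82 domains spanned 5.97 to 85.3 kb, with a median of 32.7 kb and 3.01 Mb in sum. They lay on 23 of the 25 chromosomes, with the highest number, 8, on each of chromosomes 16 and 22 and none on chromosomes 12 and 15. As a share of all merged domains, the members made up 17% on chromosome 16 and 15.1% on chromosome 22. Among the members, 13 (15.9%) had another member within 500 kb, against 8 (9.76%) of the 82 domains kept in all 7 libraries and 16 (13.9%) of the 115 recurrent in tumors, a difference that was not tested. The closest pair lay 54.8 kb apart on chromosome 22, and the themis domain on chromosome 20 lay 95.2 kb from an unnamed member. The domains kept in all 7 libraries, which also number 82, spanned a median of 52.6 kb and served as a comparison.

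What the libraries held inside the domains was measured first. Tumors 1, 2, 3 and 4 had 356, 372, 340 and 247 peaks there, against 741, 851 and 809 in thymus 2, 3 and 5. Every tumor had fewer peaks there than any thymus library, with a mean per domain of 4.01 ± 0.683 in tumors (SD, n = 4), against 9.76 ± 0.677 in thymus (SD, n = 3). The ratio of these means was 0.411. In the domains kept in all 7 libraries every tumor also had fewer peaks, 855 to 1129 against 1187 to 1591, a ratio of 0.68. Over all 1273 merged domains the ratio of peak numbers was 0.788. In the 82 domains peaks covered 226, 226, 258 and 132 kb in tumors 1, 2, 3 and 4, against 316, 532 and 573 kb in thymus 2, 3 and 5. The group means were 211 ± 54.4 kb (SD, n = 4) in tumors and 474 ± 138 kb in thymus (SD, n = 3), a ratio of 0.445. In the domains kept in all 7 libraries the same ratio was 0.944, and over all 1273 merged domains it was 1.1. Over all merged domains tumors 1, 2, 3 and 4 covered 4743, 6928, 5032 and 3333 kb, against 2998, 5020 and 5617 kb in thymus 2, 3 and 5. That ratio rested on single libraries, being 0.961 without tumor 2 and 0.942 without thymus 2. With each library left out in turn from the same domains, a setting chosen after seeing the data, it ranged from 0.942 to 1.25, and that of the members from 0.381 to 0.5. Thymus 2, the library with the shortest cover in thymus, was the lowest of the 3 in 79 of the 82 domains, and tumor 4 was the lowest tumor in 62.

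**Figure D1:**
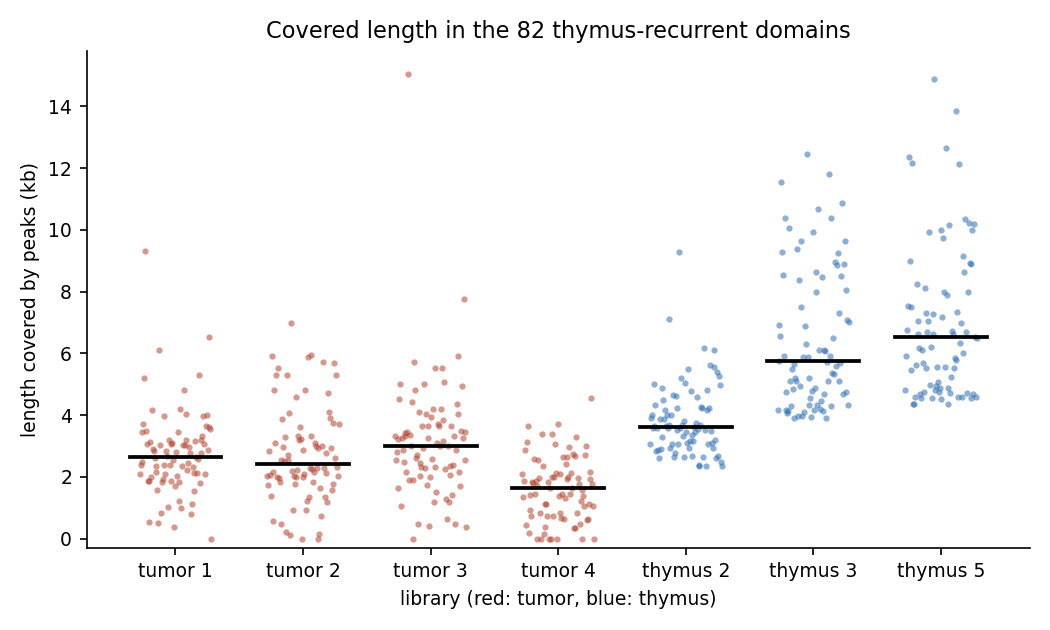
Length covered by H3K27ac peaks (kb, vertical axis) in each of the 82 thymus-recurrent domains, by library (tumors in red, thymus in blue); 1 point is 1 domain and the black line is the median. Medians were 2656, 2408, 3004 and 1628 bp in tumors 1, 2, 3 and 4, against 3602, 5740 and 6516 bp in thymus 2, 3 and 5, and a single domain reached 15051 bp in tumor 3.

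The peaks called inside the domains had a median width of 532, 452, 676 and 421 bp in tumors 1, 2, 3 and 4, against 227, 283 and 289 bp in thymus 2, 3 and 5. In domains kept in all 7 libraries the medians were 568, 497, 502 and 417 bp in the tumors, against 220, 259 and 288 bp in thymus. These medians are over each library's own peaks, whose minimum width differs between lists, so they do not compare the same sites. At the 323 thymus regions found in all 3 thymus libraries, with a median width of 1482 bp, tumors had a peak in 67.4 ± 6.8% and covered at least 50% of the region in 31.1 ± 12% (SD, n = 4). The lower cover of tumors went with fewer peaks. These regions join the peaks of 3 thymus libraries, so a single library can also cover them in part, and the 31.1% counts untouched regions too. The same share was not taken for single thymus libraries, so whether cover was shorter at shared sites was not tested.

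In 45 of the 82 domains every tumor was covered less than every thymus library, where the same held for 14.6% of all merged domains. With thymus 2 set aside, every tumor was covered less than thymus 3 and thymus 5 in 76 domains, against 33.3% of merged domains. Both counts follow in part from the choice of the domains. In 3 domains the highest tumor exceeded every thymus library.

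The edge of the selection was sharp in rank and flat in length. The last kept domain and the first one left out measured 3422 and 3414 bp in tumor 1, 4166 and 4149 bp in tumor 2, 3755 and 3745 bp in tumor 3, and 2429 and 2422 bp in tumor 4. In thymus 2 they measured 2316 and 2312 bp, in thymus 3 both 3860 bp, and in thymus 5 4341 and 4340 bp. A few bases thus separated a domain that counted as kept from one that did not. In thymus 2 the last kept domain, at chr6:12916734-12923424, was the one that placed the cxcr4a domain among the 82. The others just inside were chr3:10413062-10425108 in tumor 1, chr2:25006373-25028600 in tumor 2, chr5:51994988-52010590 in tumor 3, chr22:707-12436 in tumor 4, chr11:8125399-8138004 in thymus 3 and chr19:21365584-21389869 in thymus 5. Those just outside were chr23:39015244-39034726 in tumor 1, chr10:35097537-35108695 in tumor 2, chr7:36549749-36568468 in tumor 3, chr22:21512486-21517471 in tumor 4, chr8:12428948-12440837 in thymus 2, chr19:24515990-24523105 in thymus 3 and chr9:56264757-56281208 in thymus 5.

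Ranks show how far members stood from the limit in tumors. The median rank of the best joined domain at a member was 987, 1232, 906 and 1221 in tumors 1, 2, 3 and 4, against 186, 231 and 252 in thymus 2, 3 and 5. Ranks after 500 and up to 1000 held 34, 27, 31 and 26 of the 73, 75, 70 and 73 members not kept in tumors 1, 2, 3 and 4, and ranks beyond 2000 held 14, 23, 20 and 24. Of all merged domains not kept in those tumors (791, 786, 790 and 802), 252, 247, 254 and 221 had ranks after 500 and up to 1000. Ranks beyond 2000 held 229, 254, 240 and 273 of them, so such ranks were not particular to the members. A rank could also be lost because a tumor's peaks lay in several joined pieces. Of the members not kept, 10, 7, 9 and 9 in tumors 1, 2, 3 and 4 had enough cover in sum over their pieces to reach the last kept length, as did 63, 38, 66 and 66 of all merged domains not kept. The mean number of joined pieces per member was 1.41, 1.4, 1.5 and 1.29 in the tumors and 1.32, 1.16 and 1.17 in thymus 2, 3 and 5.

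**Figure D2:**
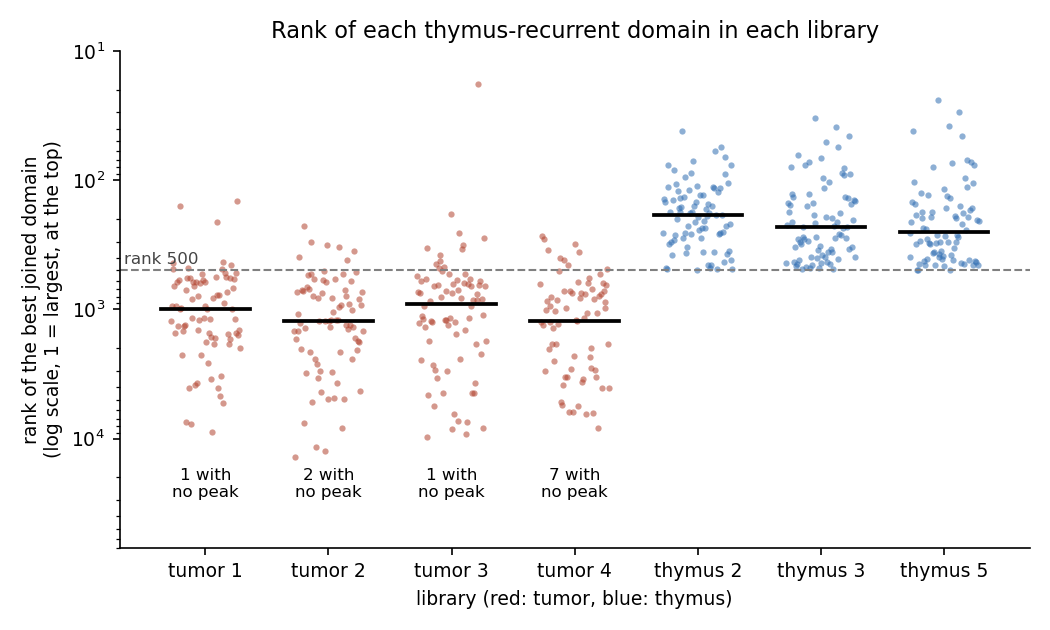
Rank of the best joined domain overlapping each of the 82 members (vertical axis, log scale, rank 1 at the top) by library; 1 point is 1 domain, the black line is the median over all 82 and the dashed line marks rank 500. Every thymus point lies at or above the line by construction, and the tumor points spread from above the line down to rank 13760 in tumor 2.

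Members were rarely empty in a tumor. No peak was found in 1, 2, 1 and 7 members in tumors 1, 2, 3 and 4, a mean of 2.75 ± 2.87 (SD, n = 4), and in 0 members in any thymus library, as the choice requires. In 74 of the 82 domains all 4 tumors kept at least 1 peak. Among members not kept in a given tumor, the share without a peak was 1.37% in tumor 1, 2.67% in tumor 2, 1.43% in tumor 3 and 9.59% in tumor 4. Among all domains kept in some thymus library and not in that tumor, it was 9.11%, 6.43%, 3.95% and 10.1%. Empty domains were thus no more common among the members than in that background, which also takes in domains kept in fewer than 3 thymus libraries. Of the 157 domains kept in all 3 thymus libraries and 2 or more tumors, 13, 38, 23 and 30 were not kept in tumors 1, 2, 3 and 4. Of those, 0 were empty, so against that class empty domains were more common among the members. That class requires 2 or more tumors to keep a domain, which favors few empty ones.

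The choice can be set against libraries it did not use by leaving out a library, choosing the domains from the other 6 and looking them up in it. Of 103 domains chosen without tumor 1, 29.1% were kept in tumor 1, where 34.1% of all merged domains of the other libraries were kept. The shares were 14.8% of 88 in tumor 2 (all merged domains, 32.7%), 28.6% of 98 in tumor 3 (35.5%) and 24.7% of 97 in tumor 4 (33.2%). All 4 tumors thus lay below their background. Domains chosen without a tumor were kept in at most 1 of the remaining tumors, while the background has no such limit. A lower share than the background thus also follows in part from the choice. The thymus libraries lay above theirs. Domains chosen without a thymus library were already kept in the remaining thymus libraries, while the background also takes in domains kept in a single library. A higher share than the background thus follows in part from the choice. Of 136 domains chosen without thymus 2, 60.3% were kept in thymus 2 (all merged domains, 30.6%), and the shares were 78.3% of 106 in thymus 3 (36.6%) and 77.1% of 105 in thymus 5 (36.8%). The rule differs with the library left out, so the 7 shares are not exchangeable and were given no test. The 78.3% of thymus 3, whose peak names lack the word batch2, comes from 1 library, and the part of that word was not tested.

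How much of the thymus signal a tumor still covered was measured on the sequence that all 3 thymus libraries covered, 232 kb over the 82 domains. Of it, tumors 1, 2, 3 and 4 covered 56.6%, 53%, 62.5% and 37.8%. The mean was 52.5 ± 10.5% (SD, n = 4), against 74.9 ± 5.57% in the domains kept in all 7 libraries and 71.2 ± 6.94% in the 157 domains kept in all 3 thymus libraries and 2 or more tumors. Tumor 4, the shortest list, was lowest in all 3 classes. Each of the 4 tumors covered a smaller share in the thymus-recurrent domains than in either of the other classes. The classes were set by how many tumors kept a domain, so this order follows in part from the choice. The same holds for the comparisons of thymus regions between these classes.

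The same measure in thymus gives its spread between libraries. On the 407 kb common to thymus 3 and thymus 5, tumors 1, 2, 3 and 4 covered 45.3%, 43.1%, 49.4% and 28.5%, against 57% in thymus 2. On the 262 kb common to thymus 2 and thymus 5 the tumors averaged 48.3 ± 10%, against 88.5% in thymus 3. On the 247 kb common to thymus 2 and thymus 3 they averaged 49.9 ± 10.2%, against 93.8% in thymus 5. The remaining thymus library was above every tumor each time, by little where it was thymus 2. The choice of domains used that library too, and allowed at most 1 tumor, so this order follows in part from the choice. In the domains kept in all 7 libraries thymus 2 covered only 45.9% of what thymus 3 and thymus 5 share, below the tumor mean of 63.6 ± 6.53%.

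**Figure D3:**
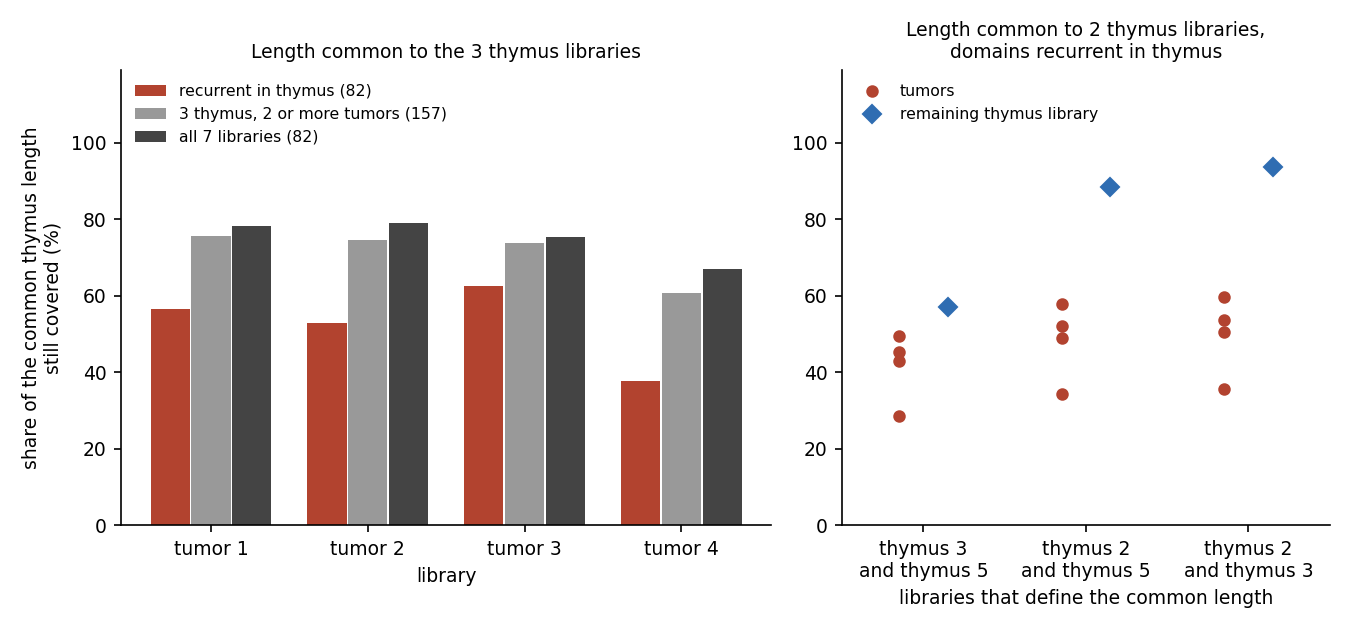
Left, share (%) of the sequence common to the 3 thymus libraries that each tumor covered, in domains recurrent in thymus (red), kept in 3 thymus libraries and 2 or more tumors (grey) and kept in all 7 (dark). Right, the same in the thymus-recurrent domains for sequence common to 2 thymus libraries, with tumors as red circles and the remaining thymus library as a blue diamond, which sits at 57%, 88.5% and 93.8%.

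Domains differed widely in what was left. The mean over tumors of the share left ranged from 1.32% to 88.1% across domains, with a median of 58.3% and quartiles of 37.5% and 69.4%. It was under 25% in 11 domains and over 75% in 12. By tumor, 9, 13, 10 and 29 domains had under 25% left in tumors 1, 2, 3 and 4, and 19, 20, 36 and 3 had over 75% left. Tumor 3 kept the most and tumor 4 the least.

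Peaks were then compared one by one. Merging thymus peaks where they overlapped gave 1194 thymus regions in the 82 domains. A peak of tumors 1, 2, 3 and 4 touched 24.1%, 24%, 24.3% and 17.2% of them, a mean of 22.4 ± 3.49% (SD, n = 4), against 35.6 ± 4.8% of the 2201 thymus regions in domains kept in all 7 libraries. Of the 698 regions found in 1 thymus library, 90.3% were touched by no tumor, as were 65.9% of the 173 found in 2 libraries and 17% of the 323 found in all 3. Regions found in all 3 thymus libraries were touched in 71.8%, 70%, 70.6% and 57.3% of cases in tumors 1, 2, 3 and 4. Of the 799 regions that no tumor touched, 630 were found in a single thymus library, as were 698 of all 1194 regions. By count, much of what the tumors lacked was thus not shared among thymus libraries either. Regions of a single library were narrow, with a median width of 148 bp, against 1482 bp for those found in all 3.

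By touch, width went with what was left up to 2000 bp. Among regions found in all 3 thymus libraries, tumors touched a mean of 14.8 ± 6.05% of the 27 narrower than 500 bp, 45.8 ± 6.2% of the 65 of 500 to under 1000 bp, 80 ± 7.23% of the 120 of 1000 to under 2000 bp and 79.3 ± 8.09% of the 111 of 2000 bp or more (SD, n = 4 each). In domains kept in all 7 libraries the same classes gave 48.3 ± 4.93%, 62.6 ± 8.65%, 84 ± 7.53% and 95.9 ± 2.67%. By touch the 2 kinds of domain were closest for regions of 1000 to under 2000 bp. A touch can be slight, and a wide region offers more length to touch. From the narrowest class to the widest, at least 50% of a region was covered in 12 ± 5.56%, 25 ± 9.09%, 38.8 ± 16.9% and 31.1 ± 10.9% of the members' regions. In the domains kept in all 7 the shares were 37.8 ± 9.43%, 40.3 ± 11.5%, 54.4 ± 10.1% and 69.4 ± 7.7%. By this measure the members' share did not rise further in the widest class. Over all widths that share was 31.1 ± 12% in the members, against 55.2 ± 9.18%. The widest thymus region of a domain was touched by all 4 tumors in 56 of the 82 domains (68.3%), against 77 of 82 (93.9%) in the domains kept in all 7, and by no tumor in 4.

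**Figure D4:**
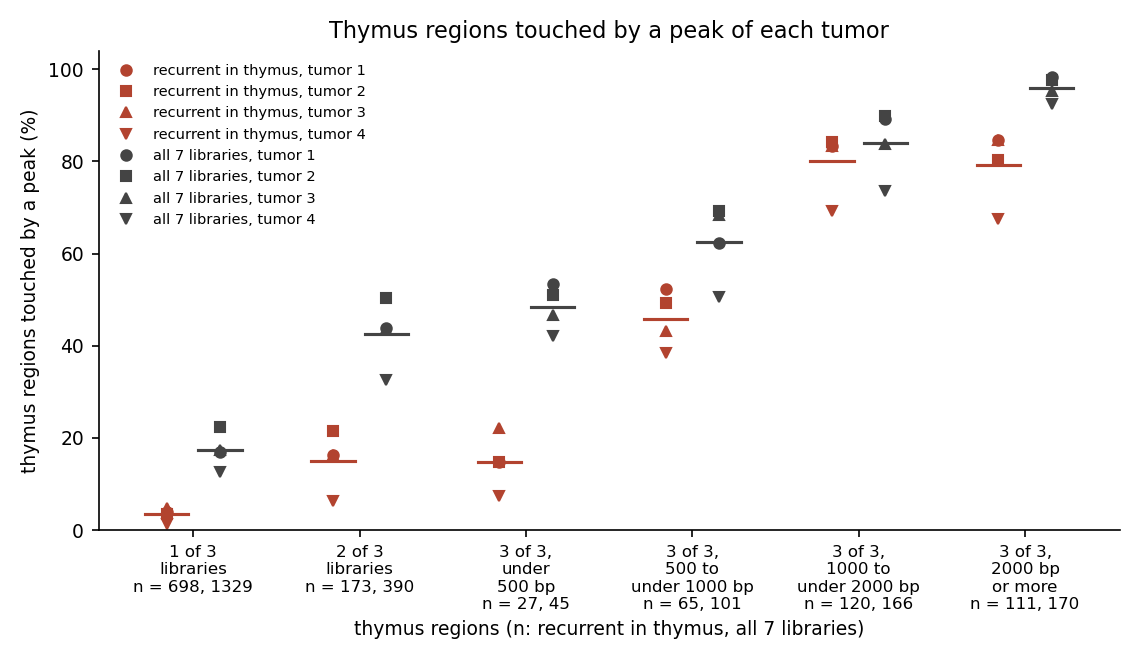
Share of thymus regions touched by a peak (%, vertical axis) for regions found in 1, 2 or 3 of the 3 thymus libraries, the last split by width; red marks are domains recurrent in thymus, dark marks domains kept in all 7 libraries, with 1 symbol per tumor and a line at the mean of 4 tumors. The red means are 3.4%, 15%, 14.8%, 45.8%, 80% and 79.3% from left to right.

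Almost all tumor peaks in these domains touched a thymus peak. Only 20 of 356, 34 of 372, 31 of 340 and 11 of 247 peaks of tumors 1, 2, 3 and 4 touched no thymus peak, which is 5.62%, 9.14%, 9.12% and 4.45%. In the domains kept in all 7 libraries the shares were 16.4%, 22.3%, 18.7% and 14.7%. Peaks away from thymus peaks had medians of 206 to 268 bp in the 4 tumors, narrower than the 428 to 721 bp of those on thymus peaks. Most tumor peaks in these domains thus touched a peak of at least 1 thymus library, which does not show how much of their length was shared. The domains were chosen for large thymus cover and little tumor cover, which favors low shares of peaks away from thymus peaks.

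Tumor 1 is the only list with an enrichment value, the authors' fold over background, for each peak. Its 356 peaks in the thymus-recurrent domains had a median fold of 3.57 and a median -log10 p of 7.59. The medians were 3.32 and 6.31 over its 948 peaks in domains kept in all 7 libraries, and 3.56 and 6.64 over its whole list of 26449 peaks. The peaks that tumor 1 kept in these domains were thus of ordinary strength for that list, and peaks of 1 library are not replicates.

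Of the 82 domains, 45 were kept in no tumor and 37 in exactly 1, of which 9 were kept in tumor 1, 7 in tumor 2, 12 in tumor 3 and 9 in tumor 4. In the 45, tumors 1, 2, 3 and 4 covered 97.2, 99.5, 110 and 52.4 kb, against 174, 283 and 304 kb in thymus 2, 3 and 5. In the 37 they covered 129, 126, 148 and 79.8 kb, against 142, 249 and 270 kb. The ratio of the group means was 0.354 in the 45 and 0.548 in the 37. The share of the common thymus sequence left was 46.2 ± 11.7% in the 45 and 59.8 ± 9.14% in the 37 (SD, n = 4 tumors each). In the 9 domains kept in tumor 1 alone, tumor 1 covered 68.8% of the common thymus sequence and the other 3 tumors averaged 51.8%. The values were 76.5% and 60.6% in the 7 kept in tumor 2 alone, and 85.2% and 65.3% in the 12 kept in tumor 3 alone. In the 9 kept in tumor 4 alone both were 49.7%, where tumor 4 covered 37.8% over all 82 domains. Such domains were chosen by cover in that tumor, so a higher share there follows in part from the choice.

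Gene names were taken from the tables that the study pairs with regions of this genome build, GRCz11, and 44 of the 82 domains had at least 1. Those tables mostly list regions that the study's own read test picked from these samples, so a name is no independent evidence. A list of 76 genes of thymocyte development and T-cell receptor signaling was looked up in them, of which 29 had a region. Of the 82 domains, 5 carried 1 of these genes each, namely cxcr4a, runx3, foxo1b, ccr7 and themis. List genes can be found only in domains with a name, which 65 of the 82 domains kept in all 7 libraries had, so these numbers are not compared. In all, 10 list genes, among them lck, ikzf1, bcl11ba, zap70, il7r and ets1, fell in domains kept in all 7 libraries. Another 4 (gata3, tox2, arpp21 and rag2) fell in domains kept in at least 3 tumors and at most 1 thymus library. Of these 4, only gata3 had no overlap between groups in covered length. At rag2 it was 4323, 1404, 7216 and 6652 bp in tumors 1, 2, 3 and 4, against 801, 3990 and 7575 bp in thymus 2, 3 and 5.

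The domain at chr6:12891829-12923924 carried cxcr4a, a chemokine receptor that in mouse guides progenitors and thymocytes. Its covered length was 376, 0, 422 and 0 bp in tumors 1, 2, 3 and 4, against 2632, 4779 and 4870 bp in thymus 2, 3 and 5. The groups did not overlap, and 2 tumors had no peak at all. Of the common thymus sequence, 12.6%, 0%, 21.4% and 0% was left in tumors 1, 2, 3 and 4. Its widest thymus region, chr6:12920811-12923924, was covered over 0, 0, 117 and 0 bp in tumors 1, 2, 3 and 4, against 1769, 2900 and 2627 bp in thymus 2, 3 and 5. The peak that remained in tumors 1 and 3 lay in a separate region, chr6:12899394-12900596, where they covered 376 and 305 bp, against 316, 768 and 1128 bp in thymus 2, 3 and 5. The only peak of tumor 1 had a fold enrichment of 2.72. The domain ranked 500 in thymus 2, 324 in thymus 3 and 384 in thymus 5, so its place among the 82 rested on the edge of the selection. Cover was low in all 4 tumors, which follows in part from the choice of the domains.

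The domain at chr13:45173411-45257164 carried runx3, a Runt-family transcription factor that in mouse directs the cytotoxic T-cell fate. Peaks covered 3715, 1392, 1631 and 425 bp in tumors 1, 2, 3 and 4, against 3658, 11545 and 12363 bp in thymus 2, 3 and 5. Tumor 1 was close to thymus 2, and all tumors were far below thymus 3 and thymus 5. Of 7 regions found in all 3 thymus libraries, tumors 1, 2, 3 and 4 touched 3, 3, 2 and 1. The region at chr13:45220608-45222478 was touched by no tumor, against 707, 1764 and 1330 bp covered in thymus 2, 3 and 5. The region at chr13:45232751-45233809 was touched by all 4, over 696, 658, 447 and 340 bp in tumors 1, 2, 3 and 4, against 99, 1019 and 871 bp in thymus 2, 3 and 5. Parts of the same domain thus went separate ways. The domain ranked 488 in thymus 2, 155 in thymus 3 and 42 in thymus 5. Its place among the members was thus near the edge of the selection in thymus 2. The study, ranking by reads, names runx3 among genes with super-enhancers in several tumors as well as in thymus. Of the study's 6 runx3 regions, each tumor had a peak at 5, against 4, 5 and 6 in thymus 2, 3 and 5. Recurrence in thymus alone was therefore a feature of this domain as ranked here.

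The domain at chr10:31804784-31866455 carried foxo1b, a forkhead factor whose mouse counterpart acts on genes for survival and homing of naive T cells. Covered length was 2136, 1355, 1425 and 482 bp in tumors 1, 2, 3 and 4, against 4822, 8968 and 9170 bp in thymus 2, 3 and 5, with no overlap between groups. Its widest region, chr10:31839474-31845218, was covered over 1327, 449, 538 and 0 bp in tumors 1, 2, 3 and 4, against 2347, 5016 and 4008 bp in thymus 2, 3 and 5. The region at chr10:31808692-31809942 was touched by no tumor. At the start of the domain, chr10:31804784-31806265 kept 809, 640, 677 and 482 bp in the 4 tumors, against 900, 1306 and 1283 bp in thymus.

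The domain at chr6:10894604-10947805 was assigned to ccr7, a chemokine receptor that in mouse draws maturing thymocytes to the medulla, and to notum2. Covered length was 2472, 2831, 2799 and 1865 bp in tumors 1, 2, 3 and 4, against 3996, 6905 and 6761 bp in thymus 2, 3 and 5. Here the main region was largely intact. At chr6:10911463-10913486 tumors 1, 2, 3 and 4 covered 1823, 1567, 1867 and 1275 bp, against 1698, 1956 and 2024 bp in thymus 2, 3 and 5. Of its 30 thymus regions, 5 were found in all 3 thymus libraries, and no tumor touched 3 narrower ones of these. The fifth, chr6:10926762-10928724, was covered over 135, 177, 650 and 0 bp in tumors 1, 2, 3 and 4, against 873, 1000 and 1703 bp in thymus 2, 3 and 5.

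The domain at chr20:1425886-1497749 carried themis, which in mouse is needed for thymocytes to pass positive selection. It was kept in tumor 1 and in no other tumor. Covered length was 9305, 2164, 5001 and 3661 bp in tumors 1, 2, 3 and 4, against 4332, 8539 and 7509 bp in thymus 2, 3 and 5. Tumor 1 was above all thymus libraries and tumors 2 and 4 below them, so the groups overlapped. The region at chr20:1438008-1439741 was covered over 1197, 986, 1723 and 398 bp in tumors 1, 2, 3 and 4, against 1633, 1506 and 1734 bp in thymus 2, 3 and 5.

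**Figure D5:**
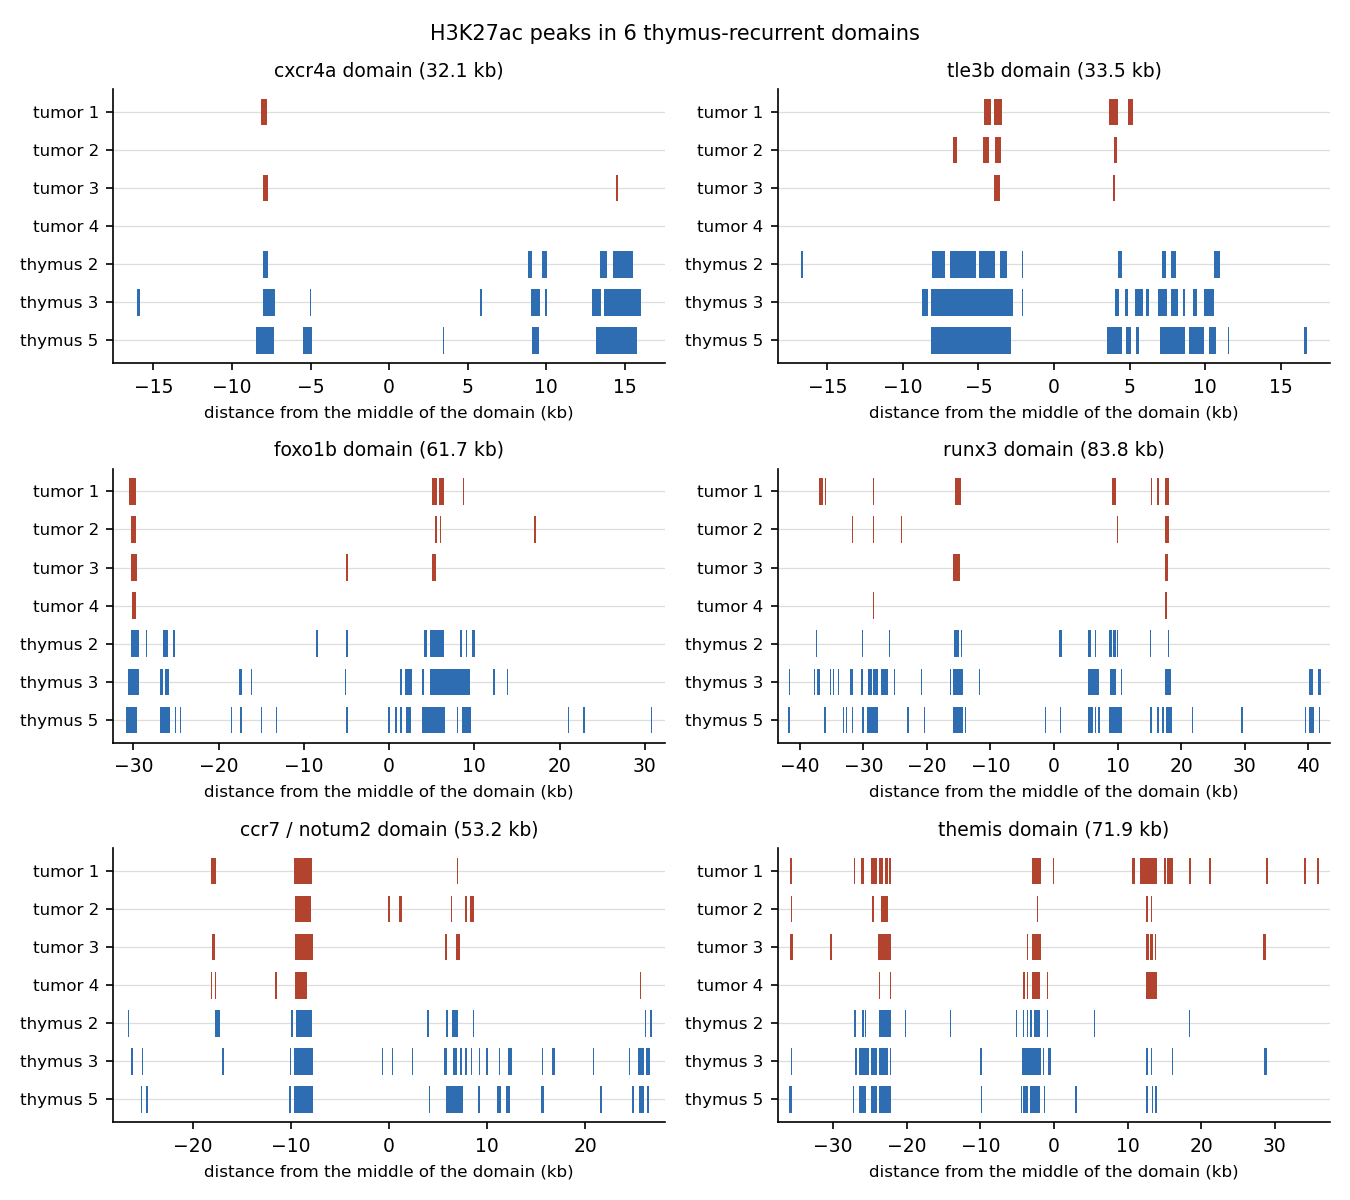
H3K27ac peaks (bars, to scale) of each library, tumors in red above thymus in blue, in 6 thymus-recurrent domains, plotted by distance from the middle of the domain (kb). The cxcr4a and tle3b domains hold 0 to 2 and 0 to 4 peaks per tumor, against 5 to 8 and 10 to 12 per thymus library, while the themis domain holds 18, 6, 9 and 7 in tumors 1, 2, 3 and 4.

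Apart from the domains of list genes, the 5 with the least left included the cxcr4a domain and 4 others. At chr2:35487339-35511898, assigned to kiaa0040, covered length was 499, 201, 0 and 0 bp in tumors 1, 2, 3 and 4, against 3680, 5093 and 4750 bp in thymus 2, 3 and 5. At chr7:33706654-33740110, assigned to tle3b, a corepressor of the Groucho family, it was 1812, 1201, 475 and 0 bp in the tumors, against 5629, 9261 and 10354 bp in thymus. Its widest thymus region, chr7:33715265-33720661, was covered over 969, 973, 353 and 0 bp in tumors 1, 2, 3 and 4, against 4127, 5396 and 5299 bp in thymus 2, 3 and 5. Both domains separated tumors from thymus without overlap.

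The domain at chr2:37311957-37372538 was assigned to gpr160, an orphan receptor, and prkci, an atypical protein kinase C. Covered length there was 793, 0, 1289 and 350 bp in tumors 1, 2, 3 and 4, against 4277, 11802 and 13859 bp in thymus 2, 3 and 5. At chr5:14325847-14349975, assigned to tet3, an enzyme that oxidizes methylcytosine, it was 1925, 127, 487 and 362 bp in the tumors, against 4640, 7497 and 7037 bp in thymus. The tet3 domain also held the widest region of 2000 bp or more that all 3 thymus libraries called and no tumor touched, 3750 bp long at chr5:14340621-14344370. There were 7 such regions among 111 of that width. Picked after their values were seen, the others lay in the domains of kdm7ab and ccnd2a (3353 bp), kiaa0040 (2937 bp), gpr160 and prkci (2765 bp), bap1 (2660 bp), rab2a (2322 bp) and tle3b (2103 bp). Ccnd2a encodes a D-type cyclin and kdm7ab a histone demethylase, and their domain was kept in tumor 2.

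The 5 domains with the most left had no gene assigned and were each kept in 1 tumor. At chr5:19908529-19934205, 88.1% of the common thymus sequence was left on average. Covered length there was 3149, 5708, 2367 and 1978 bp in tumors 1, 2, 3 and 4, against 2344, 6505 and 6981 bp in thymus 2, 3 and 5. Tumors 1, 2 and 3 thus exceeded thymus 2. The others were chr7:73813633-73867885 (86.6%), chr1:52541709-52562051 (85%), chr7:40076195-40097704 (82.4%) and chr13:3926426-3941364 (81.7%). At chr7:73813633-73867885 tumors 1, 2, 3 and 4 covered 2908, 2560, 15051 and 1878 bp, against 4496, 4286 and 7051 bp in thymus 2, 3 and 5. Tumor 3 alone exceeded all thymus libraries there, with 21 peaks and rank 18 of its list.

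The 10 domains with the largest cover in their lowest thymus library included the tle3b domain. The largest of them, at chr16:11011398-11096666, was assigned to gsk3ab, a glycogen synthase kinase, and dedd1, a protein with a death effector domain. Covered length was 3198, 4589, 5013 and 3387 bp in tumors 1, 2, 3 and 4, against 9269, 12450 and 14882 bp in thymus 2, 3 and 5. The domain at chr17:45688187-45738330, assigned to arf6b, a small GTPase of membrane traffic, was kept in tumor 1, with 6113, 5290, 5724 and 3372 bp in the tumors, against 7102, 9381 and 8122 bp in thymus. At chr23:35789115-35851082, assigned to nr1d4a, a nuclear receptor of the Rev-erb family, it was 1540, 745, 1191 and 3281 bp in tumors 1, 2, 3 and 4, against 6168, 10396 and 12120 bp in thymus 2, 3 and 5. That domain was kept in tumor 4 although only 24.8% of its common thymus sequence was left there. The limit of tumor 4, 2429 bp, was the lowest of the tumors.

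In another of these domains most of the tumor cover lay outside the widest thymus region. At chr22:10564602-10611439, assigned to bap1, a deubiquitinase of histone H2A, and to a pair of uncharacterized genes, tumors 1, 2, 3 and 4 covered 1707, 1979, 1998 and 3704 bp, against 5036, 9933 and 9986 bp in thymus 2, 3 and 5. Only 248, 747, 609 and 492 bp of that fell in its widest thymus region, chr22:10569640-10576278, against 3227, 5065 and 6126 bp in thymus. At chr9:13960831-14024510, assigned to raph1a, an actin regulator, covered length was 3075, 1567, 2148 and 604 bp in tumors 1, 2, 3 and 4, against 5556, 10881 and 8941 bp in thymus 2, 3 and 5. Of its 11 regions found in all 3 thymus libraries, 3, 2, 3 and 2 were touched in tumors 1, 2, 3 and 4.

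The domain at chr20:13624184-13679472 was assigned to tagapb, a GTPase-activating protein of activated T cells. Covered length there was 3440, 4824, 4206 and 2092 bp in tumors 1, 2, 3 and 4, against 5481, 8635 and 9734 bp in thymus 2, 3 and 5. At chr21:45048973-45095760, assigned to rapgef6, an exchange factor for Rap GTPases, it was 3976, 2937, 4045 and 2998 bp in the tumors, against 6094, 8509 and 10209 bp in thymus, and the domain was kept in tumor 4. Neither domain had overlapping groups, and in each all 4 tumors kept part of the widest thymus region. The unnamed domains at chr6:31348373-31405422 and chr14:38781712-38850809 had 56.1% and 76.4% of the common thymus sequence left on average, and the second was kept in tumor 1. Tumor 3 covered 7758 bp of the second, the highest of the tumors, yet was not among its keepers because these peaks lay in separate joined domains, the best of which ranked 636.

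The largest domains kept in a single tumor were those of arf6b for tumor 1 and nr1d4a for tumor 4, given above, and a pair more. At chr3:31835407-31876230, assigned to limd2, a LIM-domain protein, and kept in tumor 2, covered length was 4829, 5952, 3634 and 2641 bp in tumors 1, 2, 3 and 4, against 3622, 8467 and 10169 bp in thymus 2, 3 and 5. At chr3:36331067-36366087, assigned to gna13b, a heterotrimeric G protein subunit, and kept in tumor 3, it was 5198, 5926, 4520 and 3130 bp in the tumors, against 4993, 9298 and 8980 bp in thymus. Tumors 1 and 2 exceeded thymus 2 in both, and thymus 3 and thymus 5 exceeded every tumor in both.

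Further domains with an assigned gene were singled out after their values were seen. At chr18:35444767-35467727, assigned to itpkcb, an inositol-trisphosphate kinase, covered length was 1112, 163, 625 and 332 bp in tumors 1, 2, 3 and 4, against 4235, 5928 and 7325 bp in thymus 2, 3 and 5. At chr17:41279551-41304472, assigned to fosl2, a component of the AP-1 transcription factor, it was 2827, 2016, 2323 and 0 bp in the tumors, against 4218, 4104 and 4541 bp in thymus. Neither domain had overlapping groups, and fosl2 was empty in tumor 4 alone.

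The tumors diverged from each other in several of these domains. At chr21:45618275-45660037, assigned to irf1b, a member of the same family as IRF4, covered length was 3959, 6988, 4093 and 1106 bp in tumors 1, 2, 3 and 4, against 2627, 9636 and 9943 bp in thymus 2, 3 and 5. Tumors 1, 2 and 3 exceeded thymus 2 there, and tumor 4 was below every other library. At chr23:25349576-25412979, assigned to fmnl3, a formin of the actin skeleton, covered length was 1031, 2008, 2919 and 0 bp in the tumors, against 3053, 6294 and 6612 bp in thymus. At chr25:17115386-17181897, the domain of kdm7ab and ccnd2a, it was 3056, 4806, 3251 and 1424 bp in tumors 1, 2, 3 and 4, against 3567, 10381 and 12162 bp in thymus 2, 3 and 5. Tumor 2 was the only tumor above thymus 2 in that domain. At chr6:3323932-3359992, assigned to st3gal3a, a sialyltransferase, the tumors had 528, 5291, 2490 and 745 bp covered, against 2609, 4743 and 4356 bp in thymus, so that tumor 2 was above every thymus library.

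Domains with and without a gene name differed in what was left. In the 44 with a name, tumors 1, 2, 3 and 4 covered 49%, 43.1%, 51.6% and 31.4% of the common thymus sequence, and in the 38 without one 66.7%, 66.3%, 77% and 46.4%. The means were 43.8 ± 8.98% and 64.1 ± 12.8% (SD, n = 4 tumors each), with every tumor lower in the named domains. The tables that supply the names mostly list regions picked by the study's read test on these samples, and the part of that choice in the gap was not tested. The named domains also spanned more sequence, with a median of 39.7 kb against 23.6 kb.

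The 10 list genes in domains kept in all 7 libraries varied too, and 4 were picked for comparison after their values were seen. The domain of ccr9a, a chemokine receptor, at chr2:32760446-32847079 had 13418, 10360, 9919 and 7681 bp covered in tumors 1, 2, 3 and 4, against 18941, 25818 and 26439 bp in thymus 2, 3 and 5, with no overlap although it was kept in every library. That of ikzf1, a zinc finger factor of lymphocytes, at chr13:15951460-16043047 had 16100, 21877, 11829 and 11936 bp in the tumors, against 5378, 7191 and 11852 bp in thymus. There tumors 1 and 2 were above every thymus library, and tumors 3 and 4 were close to thymus 5. At lck, the kinase at the start of T-cell receptor signaling, the domain chr17:25353513-25409522 had 6826, 8260, 9945 and 7281 bp covered in tumors 1, 2, 3 and 4, against 4227, 11591 and 10683 bp in thymus 2, 3 and 5. At bcl11ba, a zinc finger factor of T-cell commitment, chr17:18114723-18141629 had 13595, 10309, 12695 and 11287 bp in the tumors, against 4025, 13328 and 14369 bp in thymus. At both lck and bcl11ba every tumor was above thymus 2 and below the highest thymus library. The transgene promoter is taken from lck, and whether it adds signal there was not tested.

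Which domains were members depended on how peaks were joined and how many domains were kept. With joining within 5 kb the rule gave 84 domains, but only 30 of the 82 (36.6%) overlapped one of them, and with joining within 20 kb it gave 77, overlapping 36 of the 82 (43.9%). Both settings found 20 of the 82 again, and neither found 36. With the 250 largest domains of each list only 24 of the 82 (29.3%) were found again, and with the 1000 largest 34 (41.5%). Of the 5 list-gene domains, foxo1b was found again in both settings, ccr7 only within 20 kb, themis only within 5 kb, and cxcr4a and runx3 in neither. Those of cxcr4a, ccr7 and runx3 were also lost where peaks under 128 bp were dropped. Where the 19809 widest peaks of each list were taken, those and the themis domain were lost. Of the other named ones, those of tle3b, gpr160 and prkci, gsk3ab and dedd1, nr1d4a and itpkcb were found again with both 5 kb and 20 kb. The mean share of the common thymus sequence left in tumors was 51.6% with 5 kb and 52.9% with 20 kb. Each setting again selects domains with much thymus and little tumor cover, so that a like share is no sign of stability.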

How the data were processed

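The H3K27ac ChIP-seq data used were 7 peak lists, 4 from tumors and 3 from thymus, and the input libraries were left aside. According to the labels and methods, reads (single-end, 50 bp) had been mapped to the GRCz11 build by Bowtie2, duplicate reads taken out with SAMtools, and broad peaks called by MACS2 in each library alone, with whole cell lysate as background and a p threshold of 0.001. A deposited list holds one line per peak, with its chromosome, its 2 positions and a name. For tumor 1 alone the deposited list also gives, per peak, a ratio (fold enrichment against the lysate) and the −log10 of the p-value that the authors' peak caller wrote, and both were used only to describe that list. No read totals were used, so no counting interval is given, and minimum peak widths differ between lists.

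Groups came from the labels. Peaks were joined, ranked and merged as described above, with positions given 1-based. A peak counted as inside a domain where it overlapped it by at least 1 bp, and 41 peaks crossed a domain's edge. Covered length was taken after merging overlapping peaks of a list and trimming them to the domain. The study ranked its stitched enhancers by reads, which peak lists do not hold. The domains and gene lists were chosen with earlier results of these data known. Domains named in the text were the 10 with the largest cover in their lowest thymus list, the 5 with the highest and the 5 with the lowest mean share of common thymus sequence left, those just inside and just outside the number kept, those carrying a gene of the fixed list, and the largest kept in each single tumor. Those of itpkcb, fosl2, irf1b, fmnl3, st3gal3a, kdm7ab and ccnd2a, and rab2a were added after their values were seen. Gene names are those the study's supplementary tables pair with GRCz11 regions inside a domain, taken as names only. The tables used were shortened, so domains without an entry stay unnamed. No sequence is printed, as no genome of that build was used here. No test was made, since the choice of domains used the measured values. Alternatives changed the joining distance, the number of domains kept, the peak widths admitted, the merging rule and the libraries used. Python 3.11.15, NumPy 2.4.6 and matplotlib 3.10.9 were used, and the joining and merging code was tested on simulated lists with planted domains.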

Additional observations from a re-analysis of the deposited data

Results flagged for a closer look

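In all, 3 values stood far from the other tumors relative to the range of the 4, among 30 measures and named domains examined, and chance places about 1 in 20 such groups past that limit. Tumor 4 had 7 thymus-recurrent domains without a peak, against 1, 2 and 1 in tumors 1, 2 and 3, and it also has the shortest list, with 19809 peaks. Tumor 3 had 15051 bp covered in the unnamed domain at chr7:73813633-73867885, against 2908, 2560 and 1878 bp in tumors 1, 2 and 4, while thymus 2, 3 and 5 had 4496, 4286 and 7051 bp. Tumor 4 had 3704 bp covered in the domain assigned to bap1, against 1707, 1979 and 1998 bp in tumors 1, 2 and 3, while thymus 2, 3 and 5 had 5036, 9933 and 9986 bp. Over all 82 domains, 7 passed the same limit, 3 of them through tumor 3, 3 through tumor 4 and 1 through tumor 2. What lies behind these values was not tested.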

How the results depend on the processing

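The count of 82 domains came to 51 with the 250 largest domains of each list, 150 with the 1000 largest and 45 where no tumor was allowed. With 250, 58 of the 82 were lost, each because fewer than 3 thymus lists kept it. With 1000, 48 were lost, each now kept in 2 or more tumors. With each library left out in turn the count ranged from 88 to 136, the highest without thymus 2. Leaving out a library loosens the rule, so a higher count follows from it, and 81 or all 82 domains were found again. With a thymus library left out, the common sequence is that of the remaining thymus libraries. The lowest share below, 42.7%, is such a value, from leaving out thymus 2. The share of common thymus sequence left in tumors, 52.5% with the main settings, ranged from 42.7% to 58.7% over these 7 fits, the ratio of covered length from 0.403 to 0.518 and the mean number of empty domains from 1.33 to 4.75. The mean number of empty domains, 2.75 with the main settings, was 8 with the 1000 largest domains, 0.5 with the 250 largest, 5 with joining within 5 kb, 1.25 with 20 kb and 4.5 with the 19809 widest peaks. With thymus 3 as the only thymus list, a setting chosen after seeing the data, there were 224 domains, of whose thymus 3 sequence 35.3% was left in tumors, and a mean of 9 were empty. Where at least 50% of a thymus region had to be covered, 11.1% of regions were left, against 22.4% at any touch. The 38 wide peaks of tumor 2, each over 9026 bp, touched 0 of the 82 domains. Joining within 5 or 20 kb, dropping peaks under 128 bp and taking the 19809 widest peaks of each list gave 77 to 89 domains. So did merging at 50% of the shorter domain and using only peaks wholly inside a domain. These settings moved the share and the ratio by less than 1 SD over the tumors. Only 30 and 36 of the 82 domains were found again with joining within 5 and 20 kb. The domains are each time chosen for much thymus and little tumor cover, so a like share or ratio is no sign of stability. Cover depends on how many peaks a list's depth allowed, which positions alone cannot show. No paired analysis was possible because tumors and thymus samples with an equal number (2 and 3) were separate fish, and the results come from no test.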
